A study of Mus musculus with 48 samples.

Results

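Transcription factors of blood stem cells and early progenitors were followed in mouse fetal liver cells, all labelled BFU-E, the burst-forming progenitor at the start of the erythroid lineage. The set is Hlf, Meis1, Hoxa9, Hoxa5, Erg, Fli1, Runx1, Etv6, Mecom and Hhex. These were chosen by symbol, and all 10 have a row among the 24062 genes of the count table. Per the labels, the cells came from embryonic day 14.5. Cells with lineage markers, Sca-1, CD16/CD32, CD41 or CD34 were removed on beads, c-Kit-positive cells were kept, and the 10% with the lowest CD71 were sorted. The same labels describe cultures with dexamethasone and TGF-beta inhibitors, but no cell of the table is labelled as treated, and no strain is given.

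RNA was read from 48 cells, each with its own library, without molecular identifiers. The table's columns match no sample title, and no animal, litter or chip is named. The cells therefore count as 1 sample of 1 group. No test across cells was made, and every correlation below describes these 48 cells only. Total counts ran from 246007 to 3211186 per cell, and genes read per cell from 5180 to 7935. Levels are CPM, the count of a gene scaled to a common library size, here with TMM factors.

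The 2 cells with the highest summed macrophage markers stood apart, at 35217 and 21700 CPM, against at most 904 CPM in the other 46. They are called macrophage-like from 8 markers, among them the complement gene C1qb, at 8038 and 9740 CPM in these cells. All 8 erythroid markers reached 10 CPM in at least 10 cells, as did 7 of 11 neutrophil and monocyte markers. Of 8 endothelial markers, a cell type that also uses Erg, Fli1 and Mecom, 1 did so, Egfl7. Of the other 7 endothelial markers, Plvap did not reach 10 CPM in any cell and the rest did so in 1 to 3 cells. No lymphoid or hepatoblast marker reached 10 CPM in 10 cells, and 1 of 5 mast cell markers did, Cpa3. Among the stem cell surface genes, Procr and Thy1 were listed at 0 in all cells and Ly6a, which encodes Sca-1, reached 10 CPM in 1 cell. Of the other 5, Cd48 reached it in 39 cells, Kit in 38, Cd34 in 19, Flt3 in 7 and Slamf1 in 2.

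Factors of this group act together in stem cells and multipotent progenitors, where they bind many shared enhancers, and several of them are lowered as cells commit to the red cell lineage. Gata1 is the master regulator of that lineage, Mpo is the myeloperoxidase of neutrophil precursors, and Cd34 is a surface protein of early progenitors. In fetal liver, the site of blood formation before birth, stem cells, committed progenitors and maturing cells lie side by side.

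A pair of the factors, Hlf and Runx1, went most closely with Mpo or Cd34 in the results below, and their promoters are shown because of this. The counts are summed per gene and do not tell the distal promoter of Runx1 from the proximal one. Each sequence is from RefSeq (GRCm38.p6), 250 bases before to 50 after the start, 5′ to 3′ on the gene's strand, with searched motifs in capitals. Promoters of 9 of the 10 factors were matched by symbol.
Hlf, chr11:90390868-90391167, minus strand: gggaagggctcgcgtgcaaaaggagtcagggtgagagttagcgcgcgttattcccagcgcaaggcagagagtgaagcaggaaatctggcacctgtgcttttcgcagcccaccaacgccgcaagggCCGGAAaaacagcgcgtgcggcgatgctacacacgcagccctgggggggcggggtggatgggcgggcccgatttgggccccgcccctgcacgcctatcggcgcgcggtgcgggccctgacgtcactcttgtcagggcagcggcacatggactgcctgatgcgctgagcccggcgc
Runx1 distal, chr16:92826025-92826324, minus strand: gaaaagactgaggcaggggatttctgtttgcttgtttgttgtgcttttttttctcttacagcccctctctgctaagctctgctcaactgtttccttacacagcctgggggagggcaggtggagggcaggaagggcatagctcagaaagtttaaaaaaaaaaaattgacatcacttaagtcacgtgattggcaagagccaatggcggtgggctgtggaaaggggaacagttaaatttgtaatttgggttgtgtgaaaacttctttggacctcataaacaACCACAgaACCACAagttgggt
Runx1 proximal, chr16:92697280-92697579, minus strand: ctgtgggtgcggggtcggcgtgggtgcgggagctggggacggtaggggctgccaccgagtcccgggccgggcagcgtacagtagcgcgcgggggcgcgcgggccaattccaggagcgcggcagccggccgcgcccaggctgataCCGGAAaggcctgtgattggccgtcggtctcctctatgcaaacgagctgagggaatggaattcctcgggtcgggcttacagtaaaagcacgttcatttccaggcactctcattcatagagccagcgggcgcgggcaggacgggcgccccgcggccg

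Motifs searched on both strands were AGATAA for GATA factors, CCGGAA for ETS factors, TGTGGT for RUNX factors, TGACAG for MEIS factors and TTACNTAA for PAR bZIP factors such as Hlf itself. The Hlf promoter held 1 ETS motif, starting at −125 from the transcription start. The proximal Runx1 promoter held 1 as well, at −106. The distal Runx1 promoter held a pair of RUNX motifs in reverse orientation, starting at 29 and 37 after the start. None of these matches overlapped another. Of the 32851 promoters in the table, 14.9% held the ETS motif, 16.8% the RUNX motif, 11.2% the GATA motif, 19.2% the MEIS motif and 2.32% the PAR bZIP motif, so such matches are common. A match is a run of letters in this window and does not show that a factor binds.

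Detection divided the 10 factors into a common set and a scarce set. Of the 10, 7 were read in 10 or more cells, while 40.3% of all genes in the table were. The level of 10 CPM was reached in 10 or more cells by 5, Meis1, Fli1, Runx1, Etv6 and Hhex, and by 26.8% of all genes. Hlf, Hoxa9, Hoxa5, Erg and Mecom reached 10 CPM in 1 to 7 cells each. The median cell held 3 of the 10 factors at 10 CPM, with 0 in the lowest cell and 7 in the highest. Only 1 cell had none, and 14 cells had at least 5. The plot of levels in each cell shows both sets.

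**Figure D1:**
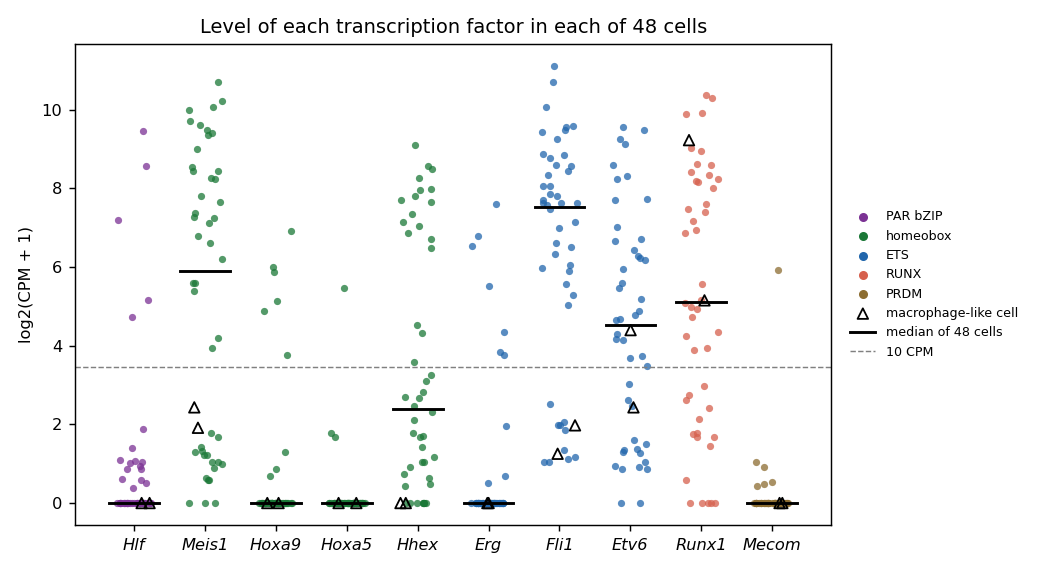
Each point is 1 of 48 cells, with the level of each factor on the vertical axis as log2(CPM + 1) and colours for the gene family. Black bars are medians, triangles are the 2 macrophage-like cells and the dashed line is 10 CPM; for Fli1, no cell lies between 4.78 and 32 CPM.

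The ETS factors bind DNA through a shared domain. Fli1, an activator of megakaryocyte and stem cell genes (GRCm38 chromosome 9, 32422204 to 32542861, minus strand), was the only factor of the 10 read in every cell. Its lowest level was 1.06 CPM, its median 184 CPM and its highest 2219 CPM, with a mean of 298 ± 433 CPM (SD, n = 48 cells). It reached 10 CPM in 36 cells (75.0%, 95% Clopper-Pearson interval 60.4 to 86.4%). No cell lay between 4.78 and 32 CPM, so the 12 cells below 10 CPM were separated from the rest by a gap.

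Etv6, an ETS repressor needed by stem cells of the bone marrow (chromosome 6, 134035700 to 134270158, plus strand), was read in 46 cells. Its lowest level was 0, its median 22.05 CPM and its highest 759 CPM, and 31 cells reached 10 CPM (64.6%, interval 49.5 to 77.8%). Its levels had no such gap: the nearest cells on either side of 10 CPM were at 7.20 and 10.2 CPM. Erg, which maintains stem cells (chromosome 16, 95359169 to 95586593, minus strand), was read in 10 cells only, and its median was 0. It reached 10 CPM in 7 cells (14.6%, interval 6.07 to 27.8%), with levels of 194, 109 and 91.4 CPM in the highest 3. All 7 of these cells also held Fli1 and Runx1 at 10 CPM.

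Runx1, the DNA-binding subunit of core-binding factor, without which definitive stem cells do not arise (chromosome 16, 92601466 to 92826149, minus strand), was read in 43 cells. Its lowest level was 0, its median 33.7 CPM and its highest 1320 CPM, with a mean of 207 ± 325 CPM (SD, n = 48 cells). In 32 cells it was at 10 CPM or more (66.7%, interval 51.6 to 79.6%). It was 34.6 and 598 CPM in the macrophage-like cells, and 30 of the other 46 cells reached 10 CPM.

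Among the homeobox genes, Meis1, the TALE-class partner of Hox and Pbx proteins (chromosome 11, 18879817 to 19018985, minus strand), was the most widely present. It was read in 45 cells, with a lowest level of 0, a median of 60.1 CPM and a highest of 1675 CPM. In 29 cells it was at 10 CPM or more (60.4%, interval 45.3 to 74.2%), and 22 cells reached 100 CPM. Hhex, a homeobox repressor of early blood and liver development (chromosome 19, 37434810 to 37440731, plus strand), was read in 38 cells at a median of 4.28 CPM, with 0 as the lowest level and 546 CPM as the highest. In 18 cells it was at 10 CPM or more (37.5%, interval 23.95 to 52.6%), and 20 further cells had a read below that level.

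Hoxa9, which drives the expansion of progenitors together with Meis1 (chromosome 6, 52223100 to 52231089, minus strand), was read in 9 cells. It reached 10 CPM in 6 (12.5%, interval 4.73 to 25.2%), with 120 CPM in the highest cell. Hoxa5, from the same cluster (chromosome 6, 52201754 to 52204587, minus strand), was read in 3 cells at 43.3, 2.43 and 2.22 CPM. Other genes of the cluster were scarcer still: Hoxa7 was read in 2 cells, Hoxa4 and Hoxa10 in 1 cell each, and Hoxa2, Hoxa3 and Hoxa13 in none. For a count of 0 in 48 cells the exact interval allows a share of up to 7.40%, and it covers counting error only.

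Hlf, a PAR bZIP factor that marks stem cells (chromosome 11, 90336536 to 90390895, minus strand), was read in 18 cells. It reached 10 CPM in 5 (10.4%, interval 3.47 to 22.7%), at 705, 377, 145, 34.8 and 25.3 CPM. The other 13 cells with a read had at most 2.69 CPM, so 5 cells held 99.0% of the summed Hlf level. Mecom, the zinc finger factor also called Evi1 that supports stem cell self-renewal (chromosome 3, 29951296 to 30548008, minus strand), was read in 6 cells. A cell with 207 reads, at 59.4 CPM, held 95% of its summed level, and the next cell was at 1.05 CPM.

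Per kilobase of annotated exon the order of the mean levels was Fli1 with 85.5 CPM, Meis1 with 24.4, Etv6 with 17.9, Runx1 with 17.2 and Hhex with 14.7 CPM per kilobase. Hlf followed with 4.05, Erg with 2.94, Hoxa9 with 1.19, Hoxa5 with 0.532 and Mecom with 0.105. The SD over cells exceeded the mean for every one of the 10 factors in CPM, and differences between neighbours in this order were not tested. Gata1 stood at 118 CPM per kilobase on the same scale. A gene on the same strand, Gm37818, overlaps 9.77% of Meis1 exon bases, and the source of reads there cannot be told. Antisense genes overlap 8.51% of Meis1 exon bases, 2.26% of Etv6, 0.881% of Runx1 and 0.652% of Mecom. The kit does not mark strand, so the source of reads from these stretches cannot be told. None of these overlapping genes has a row of its own among the counts. Mir196b, on the same strand as Hoxa9, overlaps 1.52% of its exon bases, has a row and was read in 0 cells.

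Relatives and partners of the factors were described from lists. Among 3 RUNX genes, Runx3 reached 10 CPM in 29 cells and Cbfb, the partner subunit of Runx1, in 22, against 5 for Runx2. All 9 further ETS genes listed were read in 10 or more cells, and 5 reached 10 CPM in that many: Elf1 in 41, Gabpa in 19, Elf2 in 12, Spi1 in 12 and Elk3 in 11. Among the TALE homeobox genes, Tgif1 reached 10 CPM in 11 cells and Meis2, the close relative of Meis1, in 1. Of 3 relatives of Hlf, Tef reached 10 CPM in 4 cells, Nfil3 in 2 and Dbp was listed at 0. Prdm16, the nearest relative of Mecom, reached 10 CPM in 6 cells. Other regulators of early progenitors were more often present: 10 of 14 reached 10 CPM in at least 10 cells, among them Myb in 45, Lmo2 in 38, Ikzf1 in 35, Hmga2 in 34 and Gata2 in 32.

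Co-expression within the group was described over pairs of factors. Spearman's rho of CPM over the 48 cells was counted at 0.4 or beyond. Among the 45 pairs of factors none reached 0.4 and none −0.4. Of all pairs of the 8601 genes that were read in 10 or more cells and averaged 5 CPM or more, 0.519% and 0.261% did. With shares so small, 45 pairs are too few for a count of 0 to set the group apart from other genes. The median over the 45 pairs was 0.07, and 0.15 over the 21 pairs of the 7 factors that passed that filter, against 0.01 over all pairs of genes. The filter left out Hoxa9, Hoxa5 and Mecom. The highest values were 0.39 for Meis1 with Etv6, 0.36 for Hlf with Hoxa9 and 0.36 for Fli1 with Etv6. Meis1 and Etv6 reached 10 CPM together in 22 cells, Meis1 alone in 7, Etv6 alone in 9 and neither in 10. In sparse counts, values of this size are not a finding.

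The common factors were each present in many cells, and counts of cells that held a pair of them are given as a description. Fli1 and Meis1 reached 10 CPM together in 26 cells, Fli1 and Runx1 in 25, Fli1 and Etv6 in 25 and Runx1 and Meis1 in 21. Fli1 and Runx1, both present in most cells, had a rho of 0.11. Among the scarce factors, Hlf and Hoxa9 met at 10 CPM in 2 cells, Hlf and Erg in 1, Hoxa9 and Erg in 1. The cell with Mecom and the cell with Hoxa5 held none of the other scarce factors at 10 CPM.

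**Figure D2:**
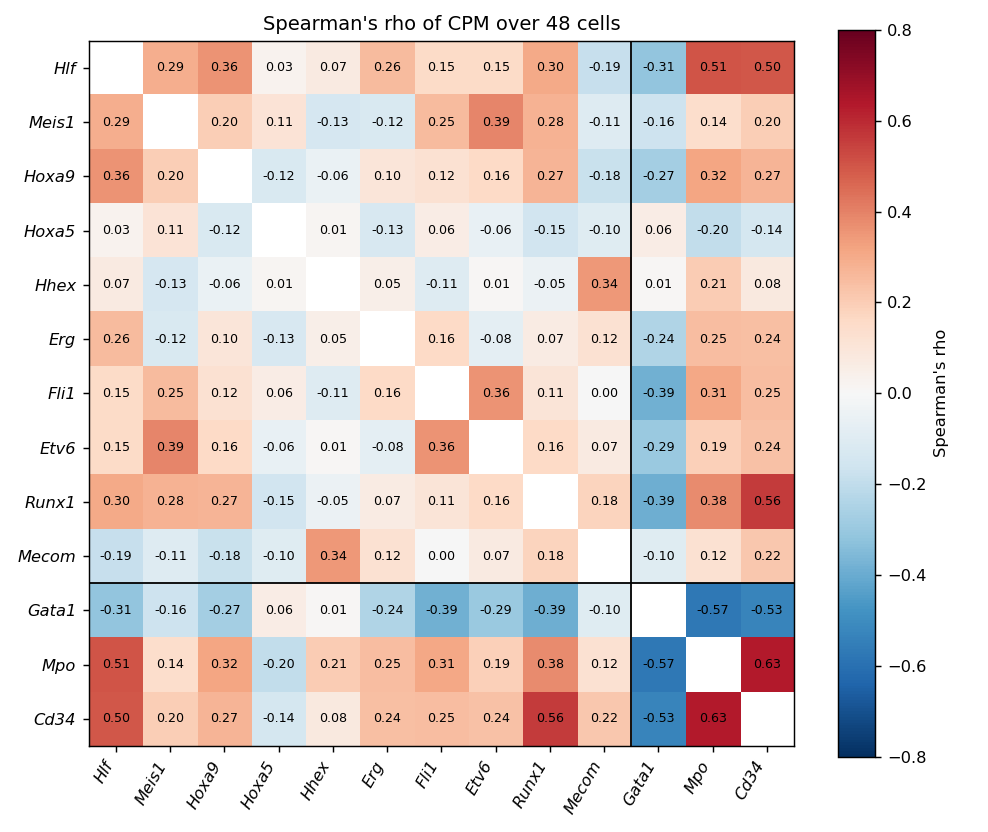
Spearman's rho of CPM over 48 cells for each pair of the 10 factors, and for each factor with Gata1, Mpo and Cd34, which stand beyond the black lines. Among the factors no value reached 0.4; the deepest colours outside the block of Gata1, Mpo and Cd34 are Runx1 with Cd34 (0.56) and Hlf with Mpo (0.51).

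The relation to Gata1 was next. Gata1 itself had a lowest level of 0, a median of 60.1 CPM and a highest of 1722 CPM, and reached 10 CPM in 28 cells. Of the 10 factors, 8 had a rho below 0 with Gata1, while 45.8% of the 8600 other genes did. None of the factors reached −0.4 or 0.4, against 1.95% and 1.71% of those genes. Runx1 at −0.39 and Fli1 at −0.39 were just short of that size, followed by Hlf at −0.31 and Etv6 at −0.29. Without the 2 macrophage-like cells Fli1 stood at −0.44, past that size, and Runx1 at −0.396, short of it. The median over the 7 factors that passed the filter was −0.29, against 0.02 over all genes. The 8600 genes all passed that filter, while Hoxa9, Hoxa5 and Mecom, at −0.27, 0.06 and −0.10, did not. The count of 8 of 10 is therefore not a like comparison.

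Counts of cells showed how often each factor met Gata1. Runx1 reached 10 CPM in 15 of 28 cells with Gata1 at 10 CPM (53.6%, interval 33.9 to 72.5%) and in 17 of 20 cells without (85.0%, interval 62.1 to 96.8%). Etv6 did so in 15 of 28 cells with Gata1 and 16 of 20 without, and Fli1 in 19 of 28 and 17 of 20. For each of these 3 factors the intervals of cells with and without Gata1 overlap. Without the macrophage-like cells Fli1 was at 10 CPM in 17 of the 18 cells that lacked Gata1. Meis1 was as frequent in cells with Gata1 (17 of 28, 60.7%) as in cells without (12 of 20, 60.0%), with 12 of 18 once the macrophage-like cells were left out, and its rho was −0.16. Hhex was at 10 CPM in 11 of 28 cells with Gata1 and 7 of 20 without, with a rho of 0.01.

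**Figure D3:**
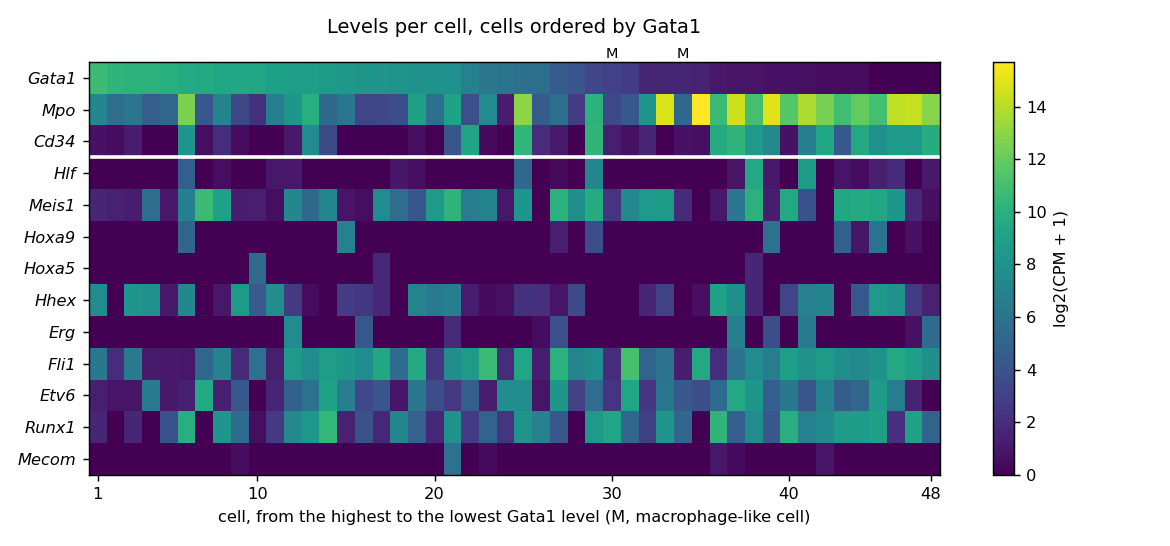
Levels as log2(CPM + 1) in 48 cells, ordered from the highest Gata1 level on the left to the lowest on the right, with M above the 2 macrophage-like cells. Mpo and Cd34 are bright mostly on the right, where Gata1 is low, while Meis1, Fli1, Etv6, Runx1 and Hhex appear at both ends.

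With Mpo the factors leaned the other way. Mpo had a lowest level of 1.32 CPM, a median of 169 CPM and a highest of 53282 CPM. Of the 10 factors, 9 had a rho above 0 and 1 below, while 48.4% of the 8600 other genes were below 0. A rho of 0.4 was reached by 1 factor, Hlf at 0.51, against 3.1% of those genes. None reached −0.4, against 1.15% of genes. Runx1 stood at 0.38, Hoxa9 at 0.32 and Fli1 at 0.31. Without the macrophage-like cells Runx1 stood at 0.44, and Hlf at 0.49. The median over the 7 factors that passed the filter was 0.25, against 0.01 over all genes. The 8600 genes all passed that filter, while Hoxa9, Hoxa5 and Mecom did not. Hoxa5, read in 3 cells, was the factor below 0.

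All 5 cells with Hlf at 10 CPM were among the 18 cells with Mpo at 1000 CPM or more (27.8%, interval 9.69 to 53.5%), and the 30 cells below held none (interval 0 to 11.6%). The level of 1000 CPM was chosen after the values had been seen, and at 100 CPM of Mpo the counts were 5 of 27 cells with and 0 of 21 without. Mpo ran from 1129 to 14224 CPM in those 5 cells. Gata1 was at 0.739, 0.601 and 9.31 CPM in the 3 cells with Hlf above 100 CPM. It was at 53.7 and 811 CPM in the cells with Hlf at 34.8 and 25.3 CPM. Hoxa9 was at 10 CPM in 5 of the 18 cells with high Mpo and 1 of the other 30, and that 1 cell held its highest level, with Gata1 at 336 CPM and summed macrophage markers at 904 CPM. Runx1 was at 10 CPM in 16 of 18 cells with high Mpo and 16 of the other 30, and Etv6 in 15 of 18 and 16 of 30. At 100 CPM of Mpo, Runx1 was at 10 CPM in 22 of 27 cells with and 10 of 21 without. Etv6 was so in 18 of 27 (66.7%) and 13 of 21 (61.9%), so its gap rests on the higher level of Mpo.

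Cd34 had the closest relation to Runx1. Its lowest level was 0, its median 1.25 CPM and its highest 1309 CPM, and 19 cells reached 10 CPM although the sort removed cells with the surface protein. Of the 10 factors, 9 had a rho above 0 and 1 below, while 44.9% of the 8600 other genes were below 0. A rho of 0.4 was reached by 2 factors, Runx1 at 0.56 and Hlf at 0.50, against 2.13% of those genes. None reached −0.4, against 0.837% of genes. The median over the 7 factors that passed the filter was 0.24, against 0.02 over all genes. The 8600 genes all passed that filter, while Hoxa9, Hoxa5 and Mecom did not. Hoxa5, read in 3 cells, was the factor below 0.

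Runx1 was at 10 CPM in 17 of 19 cells with Cd34 at 10 CPM (89.5%, interval 66.9 to 98.7%) and in 15 of 29 cells without (51.7%, interval 32.5 to 70.6%). The intervals overlap between 66.9 and 70.6%, and without the macrophage-like cells the cells that lacked Cd34 held Runx1 in 13 of 27. Hlf was at 10 CPM in 5 of 19 cells with Cd34 and in 0 of 29 without (interval 0 to 11.9%). Hoxa9 was at 10 CPM in 5 of 19 and 1 of 29, Fli1 in 17 of 19 and 19 of 29, and Meis1 in 14 of 19 and 15 of 29.

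**Figure D4:**
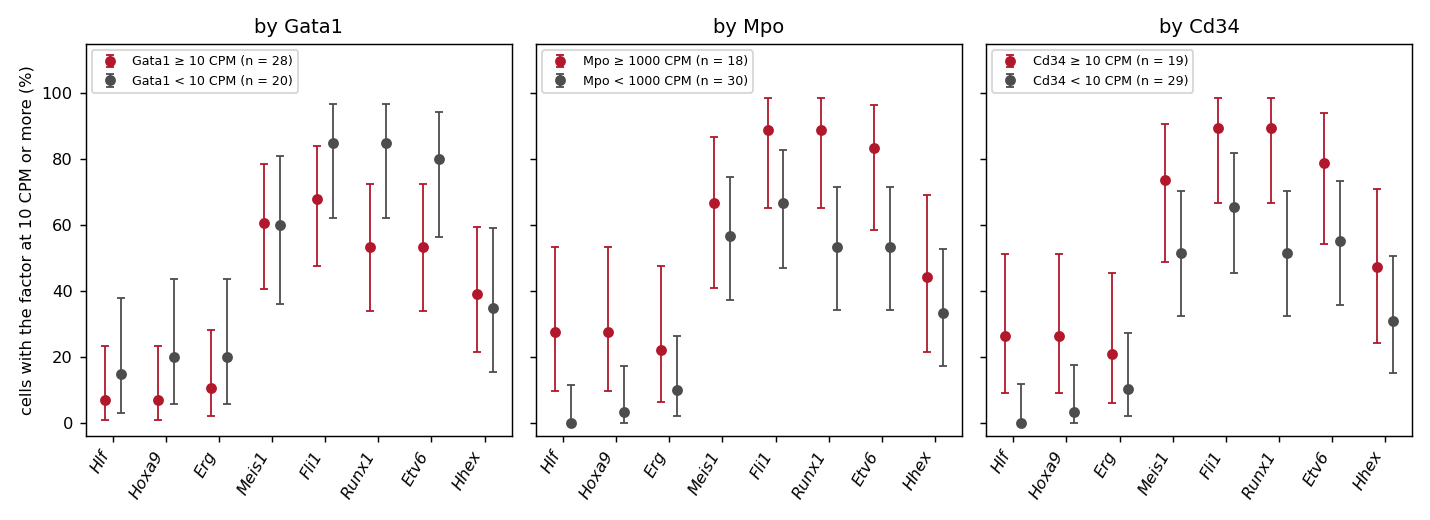
Share of cells with each factor at 10 CPM or more, in cells with (red) and without (grey) Gata1 at 10 CPM, Mpo at 1000 CPM and Cd34 at 10 CPM; points are shares and bars 95% Clopper-Pearson intervals. Runx1 lies lower with Gata1 (53.6% and 85.0%) and higher with Cd34 (89.5% and 51.7%), while Meis1 is level with respect to Gata1; Hoxa5 and Mecom, at 10 CPM in 1 cell each, are not drawn.

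Gata1, Mpo and Cd34 were themselves related across these cells, with a rho of −0.57 for Gata1 with Mpo, −0.53 for Gata1 with Cd34 and 0.63 for Mpo with Cd34. Given Mpo, the partial rank correlation of Runx1 with Cd34 was 0.45, while that of Runx1 with Mpo given Cd34 was 0.04. Hlf did not separate so, with 0.26 for Cd34 given Mpo and 0.29 for Mpo given Cd34. Its relation to Gata1 was −0.03 given Mpo and −0.07 given Cd34. Fli1 kept −0.27 with Gata1 given Mpo and −0.31 given Cd34. These partial values describe the same 48 cells and carry no test.

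**Figure D5:**
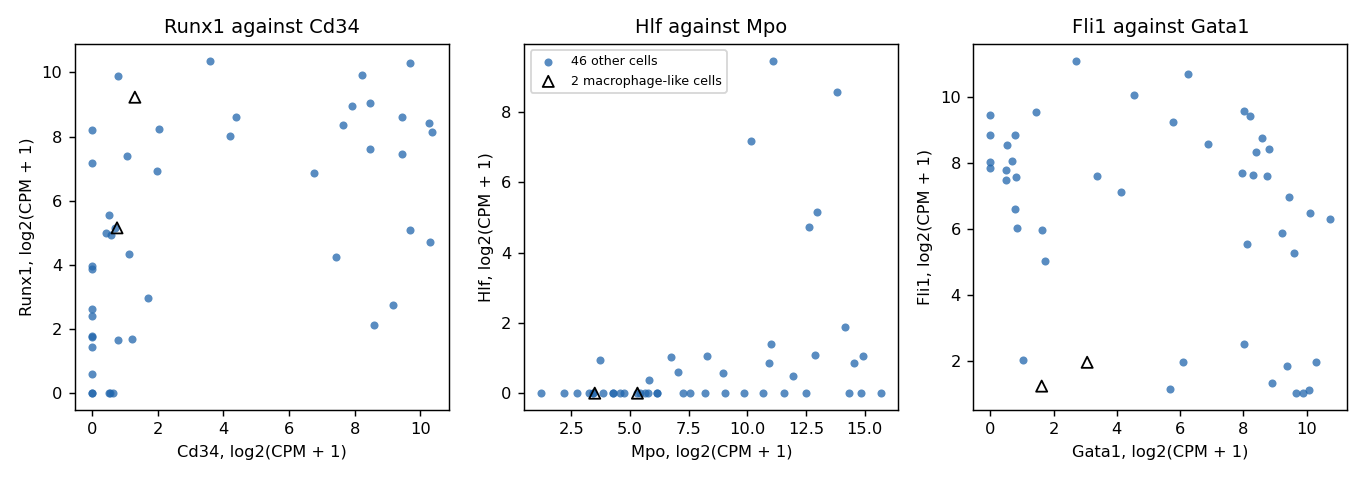
Levels as log2(CPM + 1) in 48 cells for Runx1 against Cd34, Hlf against Mpo and Fli1 against Gata1; triangles are the 2 macrophage-like cells. Cells with high Cd34 mostly hold Runx1 and many cells hold Runx1 without Cd34, the 5 cells with high Hlf lie above 1000 CPM of Mpo, and Fli1 is low in part of the cells with high Gata1.

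The number of factors at 10 CPM in a cell summed these relations. It had a rho of −0.37 with Gata1, 0.49 with Mpo and 0.49 with Cd34 over 48 cells, and −0.42, 0.47 and 0.50 over the 46. It also had a rho of 0.25 with the number of genes read and 0.11 with the total count, and the part of depth in these values was not tested. Among the single factors, Erg had a rho of 0.38 with the number of genes read and Hhex one of −0.29 with the total count. The cell with most factors, 7, had Hlf at 377 CPM, Erg at 91.4 CPM and Mpo at 14224 CPM. The cell with none had Gata1 at 1245 CPM.

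Markers of the erythroid and megakaryocyte lineages were set against the factors next. Klf1, the erythroid factor that activates globin genes, had a rho of −0.51 with Fli1, −0.49 with Runx1 and −0.45 with Hlf. Car1, an erythroid carbonic anhydrase, had −0.53 with Runx1, and Blvrb, a biliverdin reductase, −0.49 with Fli1 and −0.48 with Hlf. Blvrb was highest in the 2 macrophage-like cells, at 1154 and 688 CPM. In these cells Fli1 was at 1.38 and 2.93 CPM and Hlf at 0, and no rho of Blvrb was computed without them. Of the 8 erythroid markers, 2 reached −0.4 with each of Fli1, Runx1 and Hlf and 0 reached 0.4. How many of all genes reached −0.4 with these factors was not counted. The marker counts are therefore not set apart from those of other genes. Itga2b, which encodes the CD41 of megakaryocytes, had a rho of 0.34 with Fli1 and −0.40 with Runx1. Itga2b reached 10 CPM in 6 cells only.

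Neutrophil genes other than Mpo were set against the factors in the same way. Prtn3, a neutrophil protease, had a rho of 0.36 with Hlf, 0.34 with Runx1 and 0.12 with Fli1. Elane, another protease of the same granules, had 0.34 with Hlf and −0.09 with Runx1. Some factors stood nearer to another of these markers than to Mpo. Erg had a rho of 0.39 with Cebpa, a factor that starts the neutrophil programme, and 0.25 with Mpo. Cebpa was read in 15 cells and reached 10 CPM in 4 only, and Erg was read in 10 cells. Etv6 had 0.29 with Prtn3 and 0.19 with Mpo. The values with Cebpa and Prtn3 are each the highest of that factor among the markers that passed the filter, so they are high by selection. Of the 10 neutrophil and monocyte markers that passed the filter, only Mpo reached 0.4 with Hlf, and none did with Runx1 or Fli1. No erythroid, neutrophil or monocyte marker reached 0.4 or −0.4 with Meis1, Etv6 or Erg. Of the 8600 other genes, 80 reached 0.4 with Hlf, 73 with Fli1 and 65 with Runx1. With Erg 63 did, with Etv6 29 and with Meis1 20, and genes at −0.4 were not counted. With so few markers, these counts do not set the lists apart from other genes.

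The genes most like each factor were ranked by rho over the 8600 other genes, and the 3 highest were named where they reached 0.5. Being the highest of so many, these values are high by selection. Fli1 was followed by Plek, the platelet and leukocyte protein pleckstrin, at 0.62, by Hmox2, a heme oxygenase, at 0.57 and by Crot, a peroxisomal carnitine acyltransferase, at 0.56. Runx1 was followed by Alox5ap, which is needed for leukotriene synthesis, at 0.61, by Tespa1 at 0.61 and by Hmga2, a chromatin protein of fetal stem cells, at 0.61. Hmga2 was also close to Cd34, at 0.66, and stood at −0.55 with Gata1. Etv6 was followed by Zeb2, a zinc finger repressor, at 0.59, by Gigyf2 at 0.57 and by Ccdc117 at 0.52. Hlf was followed by Klc4 at 0.56, Pgrmc1 at 0.56 and Lage3 at 0.55, and Erg by Zfp398 at 0.52. Zfp398 averaged 6.5 CPM and reached 10 CPM in 3 cells only, and Erg did so in 7. No gene reached 0.5 with Meis1 or Hhex.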

How the data were processed

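SMART-Seq cDNA of each cell was made on the Fluidigm C1 and turned into Nextera XT libraries, per the labels' protocols. The submitters' processing notes name TopHat2 2.0.12, Subread, featureCounts 1.4.6 and the build mm10. The deposited counts are whole numbers per gene. The deposited log2 table equals log2 of the count over a size factor, plus 1, within 1e-06, and served as an alternative. CPM used TMM factors (0.419 to 1.70, edgeR 4.0.16 in R 4.3.3). Ranks, intervals and figures were computed with scipy 1.17.1, pandas 2.3.3, numpy 2.4.6 and matplotlib 3.10.9 under Python 3.11.15. Intervals are on numbers of cells and cover counting error only, since the cells form 1 sample with no animal, litter or chip named. PCR copies of 1 molecule are counted as separate reads.

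Genes correlated across the table passed a filter of a read in 10 cells and a mean of 5 CPM. Named genes are the 10 factors, Gata1, Mpo, Cd34, listed relatives and markers, and the 3 nearest genes per factor at a rho of 0.5. Members and lists were chosen with earlier results of these data known. Gene positions are from GENCODE for GRCm38. On simulated data with 8600 genes, the count at 0.4 with Gata1 found 76 of 100 raised and 66 of 100 lowered genes, and 49 of 8400 unrelated ones. The size of the effect and the spread were set in advance and the genes were drawn independently. These numbers therefore hold for that setting and give no error rate for the real cells. Some genes of the lists are not reported here.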

Additional observations from a re-analysis of the deposited data

How the results depend on the processing

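Of 94 alternatives to the 10 counts and medians, 77 left them near their value and 17 moved a count. Only these 2 outcomes were scored for them, so a reversal could not appear. The 77 include every alternative of the counts that stayed at 0 throughout. These are factors at 0.4 with Gata1, factors at −0.4 with Mpo or Cd34, and pairs of factors at −0.4. They also include 7 factors read in 10 or more cells, against 5 at 10 CPM, which was scored as near. The total of 77 therefore says little about the counts that could change. Factors at −0.4 with Gata1, 0 of 10 as reported, were 1 without TMM factors, 2 in the authors' log2 table, 1 after thinning every cell to 246007 counts, 1 without the 2 macrophage-like cells, 1 without the 5 cells of lowest total, 1 given the number of genes read and 3 at a size of 0.3. Factors at 0.4 with Mpo, 1 as reported, were 2 without TMM factors, 2 without the macrophage-like cells, 0 by Pearson's r of log2(CPM + 10) and 4 at 0.3. Pairs of factors at 0.4, 0 as reported, were 1 in the log2 table, 1 without the 5 cells of lowest total, 1 by Pearson's r of log2(CPM + 1), 1 by that of log2(CPM + 10), 1 given the number of genes read and 5 at 0.3. The cause of these moves was not tested.

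Over its alternatives, rho ran from 0.31 to 0.51 for Hlf with Mpo, 0.42 to 0.57 for Runx1 with Cd34, and −0.45 to −0.28 for Fli1 with Gata1. The sign was not kept for Mecom with Gata1, Hhex with Gata1 and Mecom with Cd34. After thinning, 10 CPM stood for 2.46 reads, and Hlf was read in 9 cells, Erg in 8 and Hhex in 27, so depth limits counts of detection. No paired analysis was possible because there is 1 group.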

Other observations

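Other listed genes were also related to Gata1 or Mpo. Elk3, an ETS repressor, had a rho of −0.50 with Gata1, and Runx2 one of 0.41 with Mpo. Mllt3, a regulator of stem cell maintenance in human blood, stood at −0.41 with Mpo, and Slamf1, a surface protein of adult stem cells, at −0.51, though it reached 10 CPM in 2 cells only. Fli1 had a rho of 0.50 with Elf1 and 0.41 with Gata2. Hlf had 0.44 with Egfl7, a secreted protein that endothelial and stem cells make, which reached 10 CPM in 21 cells. Spi1, the ETS factor PU.1 of myeloid cells, was at 491 and 343 CPM in the macrophage-like cells, against a median of 0.236 CPM over all 48 cells. Cbfb was at 1604 and 0 CPM in the same 2 cells. All of these values describe 48 cells of 1 sample and carry no test.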
